A study of Mus musculus with 12 samples.

Results

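The genes described here are those that cells switch on when they receive a type I interferon signal. They are given as a list of 39 symbols, and a listed gene was taken where its symbol has a row in the deposited table. Of the 39 genes, 36 are among the 13554 genes of the table, and Mx1, Mx2 and Ddx58 were not analysed here. All 36 passed the filter on low values, so that they stand among 12570 genes tested. The lowest value of any of them in any library was 20.2 normalised reads, for Oas3.

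Liver RNA was taken on postoperative day 3 of a partial hepatectomy, and all mice were C57Bl/6J, male and wild type (WT). The 4 groups had 3 libraries each. PH80_HC is an 80% resection in an arm named HC, PH80_G+H is an 80% resection with G-CSF, which drives granulocyte production, and HNF4a, a transcription factor that maintains hepatocyte identity, PH80 is the 80% resection alone, and PH70 is a 70% resection. All groups were operated, so no comparison is with an intact liver. What HC stands for, how HNF4a was given, and the doses and schedule of both agents are not stated in the labels. Nor do the labels tie each library to an animal of its own, so the p-values speak of the spread between libraries, which could be technical.

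Interferons alpha and beta bind a receptor made of Ifnar1 and Ifnar2, whose kinases Jak1 and Tyk2 phosphorylate Stat2. Stat2 works with Irf9 in the complex ISGF3, which binds the interferon-stimulated response element in promoters. The induced genes encode sensors of foreign RNA and DNA, effectors that stop viral translation or degrade RNA, the ubiquitin-like modifier Isg15, and brakes on the pathway such as Usp18. In liver the response is known from hepatocytes as well as from Kupffer cells, the resident macrophages, and plasmacytoid dendritic cells are potent producers of the interferons.

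Depth in recovered reads ran between 9.72 and 44.5 M per library. Libraries within groups also differed in how expression varied with transcript length, and the steepest slopes in log2 units per log2 unit of length were -0.28 (PH80_HC replicate 3) and 0.23 (PH80_G+H replicate 2). The hepatocyte markers Alb, Apoa1, Ttr, Hnf4a, Apob, Tat and Cps1 were all in the table, and none was at 0 in all libraries of a group.

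Promoters of 28 of the 36 genes are in RefSeq's table for GRCm38.p6, as windows of 300 bases, 250 before and 50 after the annotated start. The core of the interferon-stimulated response element, GAAA followed by any 2 bases and a second GAAA, was searched on both strands with overlapping matches counted. It occurs in the windows of 11 of these 28 genes (39.3%), against 1079 of 27025 genes of the whole table (3.99%). The 200 bases before the RefSeq start are printed for 4 genes with a match that differed among the 4 groups by the F test. They are also printed for Oasl1, which has none and whose values follow another order of groups. Oasl2, Ifi44, Xaf1, Cmpk2, Dtx3l and Helz2 have windows without a match, and PH80_G+H held their 3 highest values. Bst2, Eif2ak2, Ifih1, Oas1a, Oas3, Stat2 and Trim30a have a match, and PH80_G+H did not hold their 3 highest values. Whether a match goes with the order of groups was not tested. Capitals mark the matches on either strand, and each sequence is on its gene's own strand, 5′ to 3′. Their places are chr19:34640689-34640888 on the plus strand for Ifit1, chr19:34583329-34583528 on the plus strand for Ifit3, chr4:156200819-156201018 on the minus strand for Isg15, chr12:26456453-26456652 on the minus strand for Rsad2 and chr5:114923040-114923239 on the plus strand for Oasl1.
Ifit1: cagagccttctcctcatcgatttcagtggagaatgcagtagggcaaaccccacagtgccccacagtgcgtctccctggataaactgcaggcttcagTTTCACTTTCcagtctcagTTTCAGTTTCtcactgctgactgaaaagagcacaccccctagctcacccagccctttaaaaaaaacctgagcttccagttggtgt
Ifit3: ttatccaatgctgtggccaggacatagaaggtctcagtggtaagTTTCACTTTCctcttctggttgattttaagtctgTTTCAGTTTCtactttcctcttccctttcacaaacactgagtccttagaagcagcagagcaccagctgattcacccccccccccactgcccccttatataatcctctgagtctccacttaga
Isg15: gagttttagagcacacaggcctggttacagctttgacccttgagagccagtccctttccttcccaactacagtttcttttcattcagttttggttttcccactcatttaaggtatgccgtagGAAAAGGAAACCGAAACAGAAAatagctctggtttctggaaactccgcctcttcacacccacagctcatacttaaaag
Rsad2: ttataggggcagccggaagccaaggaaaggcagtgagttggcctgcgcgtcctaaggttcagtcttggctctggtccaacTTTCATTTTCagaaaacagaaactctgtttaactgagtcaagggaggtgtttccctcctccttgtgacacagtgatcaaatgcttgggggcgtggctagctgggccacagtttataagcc
Oasl1: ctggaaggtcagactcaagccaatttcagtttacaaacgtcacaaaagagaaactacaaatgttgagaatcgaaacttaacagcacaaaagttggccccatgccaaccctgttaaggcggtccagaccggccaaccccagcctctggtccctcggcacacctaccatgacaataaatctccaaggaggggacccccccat

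In Ifit1 and Ifit3 both matches read on the opposite strand, as TTTCACTTTC and TTTCAGTTTC, and the same pair of 10-base words occurs in each promoter. Isg15 holds 3 overlapping matches, and Rsad2 holds 1. The second motif searched, TTC and GAA with any 3 bases between them, the core of the gamma-activated site, occurs in 6 of the 28 windows (21.4%), namely those of Bst2, Eif2ak2, Ifi35, Ifit2, Oas1a and Samhd1, against 9.55% of all genes. A match is a description of the letters in the window and does not show binding.

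**Figure D1:**
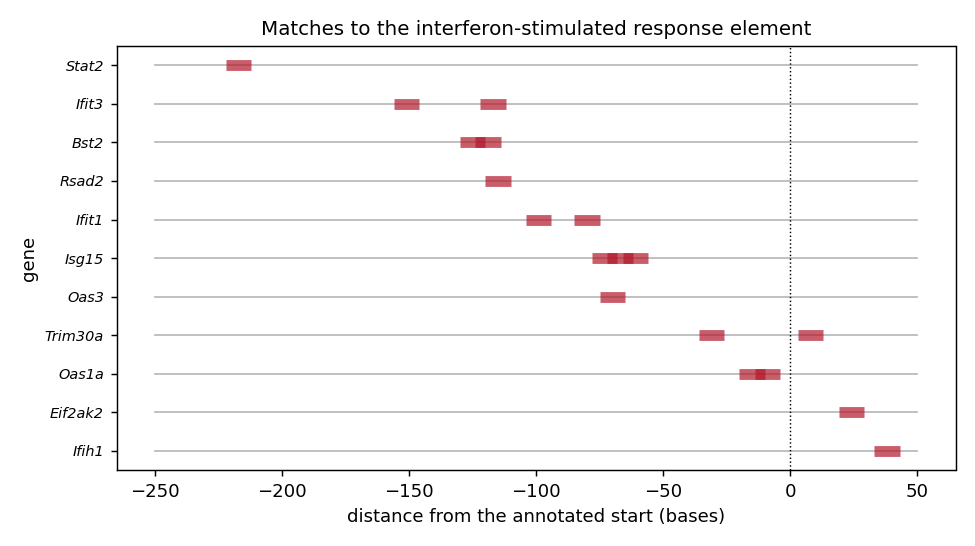
Position of each match to the core of the interferon-stimulated response element, as red bars, along the 300-base promoter windows (grey lines) of the 11 genes that hold one, in bases from the RefSeq start (dotted line). Most matches lie upstream of the start, whereas those of Eif2ak2 and Ifih1 and 1 of the 2 of Trim30a, whose 2 annotated starts are drawn on 1 line, lie within the 50 bases after it.

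Across the 4 groups, these genes were mostly highest in PH80_G+H livers. The group mean was highest in PH80_G+H for 31 of 36 genes, in PH80_HC for 2, in PH80 for 1 and in PH70 for 2. For 16 of the 36 genes the 3 PH80_G+H libraries were the 3 highest of all 12 libraries, against 0.565% of all genes tested. These 16 were Ifit1, Ifit3, Usp18, Isg15, Oasl2, Rsad2, Dhx58, Ifi44, Rtp4, Cmpk2, Xaf1, Parp9, Parp14, Dtx3l, Zbp1 and Helz2. PH80_HC held the 3 lowest values for Oasl2 (0.979% of all genes) and PH80 for Parp12 and Parp14 (2.47% of all genes). The mean log2 deviation of the 36 genes from each gene's mean was 0.59, 0.51 and 0.51 in the PH80_G+H libraries, against -0.36, -0.22 and -0.28 in PH80_HC, 0.01, -0.42 and -0.13 in PH80 and -0.11, -0.01 and -0.09 in PH70. The PH80_G+H libraries thus stood above all 9 others, and PH80 spread most.

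By the moderated F test of limma over the 4 groups, 12 of the 36 genes differed, against 1.85% of all genes tested. These were Dhx58, Ifit1, Oasl1, Usp18, Zbp1, Rtp4, Rsad2, Ifi44, Oasl2, Xaf1, Ifit3 and Isg15, with adjusted p-values between 0.00551 (Dhx58) and 0.0485 (Isg15). The count was 11 with edgeR (1.71% of all genes) and 21 with DESeq2 (9.75% of all genes) on recovered reads. Without any single library it lay between 3 and 12, with 3 without PH80_G+H replicate 1 or replicate 3, 4 without PH70 replicate 2, 6 without PH70 replicate 1, and 7 without PH80_HC replicate 1 or PH80_G+H replicate 2. Dhx58, Ifit1 and Oasl1 stayed below an adjusted p of 0.05 in all 23 alternative fits. PH80_G+H replicate 2 and PH80 replicate 1 had opposite slopes of expression on transcript length, and with the length trend removed 13 genes were called. Shares of all genes called are not given here for the fits without a library or without the length trend. The counts of these fits are therefore not set against all genes.

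**Figure D2:**
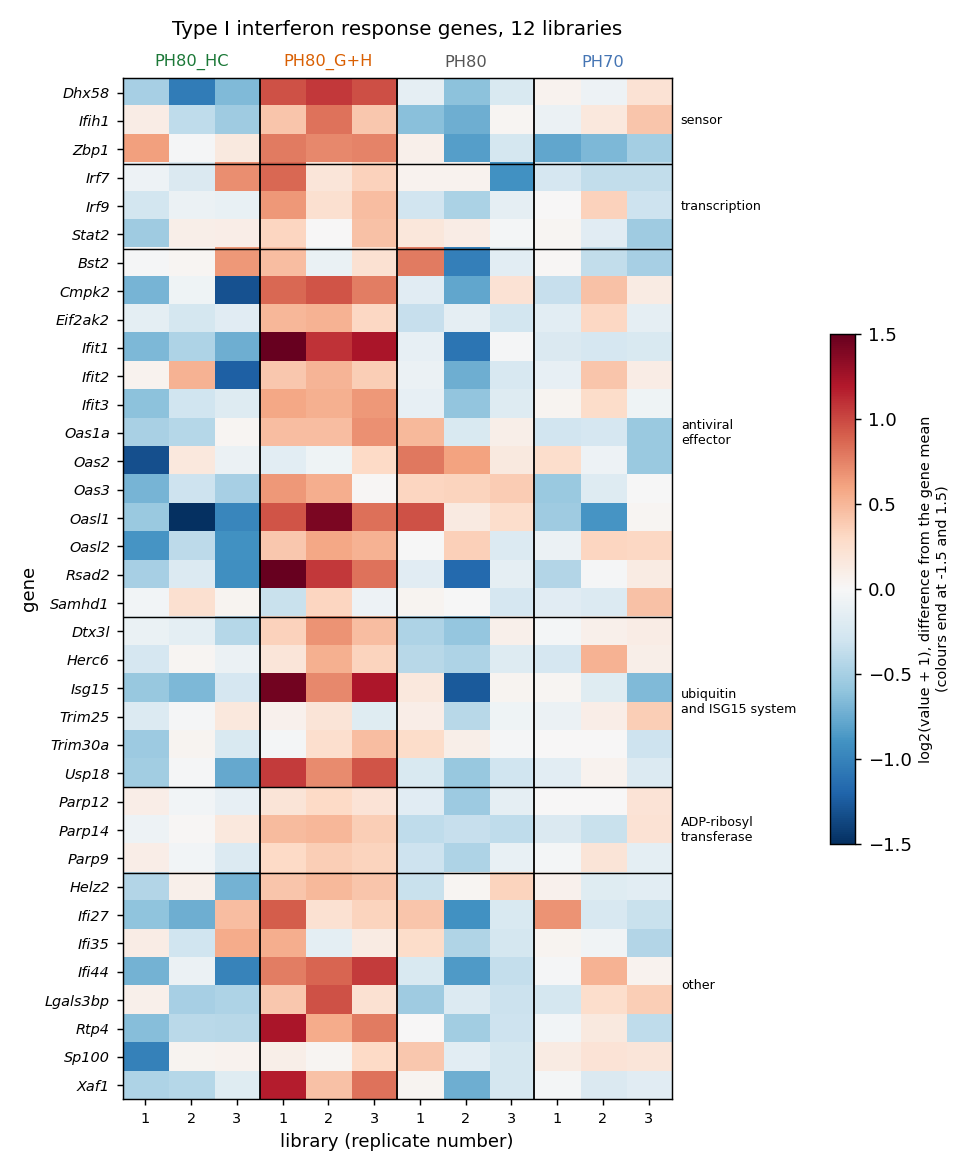
Log2(value + 1) of each of the 36 genes (rows, ordered by role) in each of the 12 libraries (columns, by group), as the difference from the gene's mean over all libraries. The 3 PH80_G+H libraries are red for most genes, whereas genes such as Bst2, Samhd1, Trim25, Sp100, Oas2 and Ifi35 show no such block.

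No group is labelled as given G-CSF or HNF4a alone, or as a control for the way they were given. The part of each agent, and of its delivery, was therefore not tested. PH80_G+H is set here against PH80, whose label names neither agent. Of the 36 genes, 3 rose and none fell, against 0.111% of all genes called higher and 0.119% (15 of 12570) called in either direction. At an unadjusted p under 0.05 there were 22 of 36 (10.5% of all genes). On recovered reads edgeR called 3 (0.0875% of all genes) and DESeq2 17 (1.61% of all genes). PH80_G+H was higher than PH80 with no overlap for 24 of the 36 genes (8.82% of all genes) and lower for 0 (8.11% of all genes). The median log2 difference of the 36 genes was 0.73, with 35 above 0, against 0.00 over all genes.

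The count of 3 in PH80_G+H against PH80 was 0 without PH70 replicate 2, without PH80 replicate 1 or replicate 2, and without any single PH80_G+H library. It was 2 without PH80 replicate 3, 4 without PH80_HC replicate 3 and 3 without each of the other 4 libraries. The median of the 36 genes moved less, between 0.64 and 0.79 over all alternatives, and was 0.66 without PH80 replicate 2, in which neutrophil markers were highest (5938 normalised reads summed over 7 markers, against at most 2385 in the other 11 libraries).

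Of the transcription factors among the 36 genes, Stat2, Irf9 and Irf7, none passed the test in PH80_G+H against PH80. Stat2, at chr10:128270559-128292849, had 1972, 1585 and 2138 normalised reads in PH80_G+H, 1085, 1673 and 1685 in PH80_HC, 1779, 1709 and 1539.5 in PH80 and 1610.5, 1402 and 1093 in PH70. The ranges of the 4 groups overlapped, and the log2 difference of PH80_G+H from PH80 was 0.17 (SE 0.21, limma adjusted p = 0.804). Irf9, at chr14:55603571-55610030, had 1161, 872 and 1019.8 in PH80_G+H, against 611, 694 and 684 in PH80_HC, 606, 533 and 675 in PH80 and 741, 941 and 595 in PH70. PH80_G+H lay above PH80_HC and PH80 and overlapped with PH70, and the difference from PH80 was 0.75 (SE 0.19, limma adjusted p = 0.176). Irf9 overlaps Rnf31 by 123 bases on the same strand.

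Irf7, the factor that amplifies interferon production and is itself interferon-induced, lies at chr7:141262706-141266481. It had 2311, 1437 and 1616 normalised reads in PH80_G+H, 1203, 1087 and 2057 in PH80_HC, 1309, 1309 and 674 in PH80 and 1060.3, 978 and 983 in PH70. PH80_G+H lay above PH80 and PH70 with no overlap. PH80_HC overlapped with PH80_G+H and PH80 and lay above PH70. The difference of PH80_G+H from PH80 was 0.74 (SE 0.29, limma adjusted p = 0.377).

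Among the sensors of nucleic acid, Dhx58 rose in PH80_G+H. Dhx58 encodes LGP2, a relative of the RNA sensors RIG-I and MDA5 that modulates them, and lies at chr11:100694884-100704271. It had 616, 661 and 618 normalised reads in PH80_G+H, against 224, 153 and 199.8 in PH80_HC, 288, 207 and 271 in PH80 and 327, 302 and 368 in PH70. Every PH80_G+H library was above every other library by a wide margin, and PH80_HC lay below PH70. The log2 difference of PH80_G+H from PH80 was 1.32 (SE 0.19, 2.49-fold, limma adjusted p = 0.0243). Dhx58 shares 2637 bases with the antisense gene Dhx58os, and no source used here states whether the authors counted by strand, so reads of the pair cannot be told apart.

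Ifih1, which encodes the long double-stranded RNA sensor MDA5 (chr2:62595798-62646255), had 1139, 1512 and 1131 normalised reads in PH80_G+H, 923, 659 and 593 in PH80_HC, 556, 517 and 873 in PH80 and 805, 958 and 1142 in PH70. PH80_G+H lay above PH80_HC and PH80, while PH70 reached into its range. The difference of PH80_G+H from PH80 was 0.99 (SE 0.24, limma adjusted p = 0.153). Zbp1, a sensor of Z-form nucleic acid that can start necroptosis (chr2:173206612-173218923), had 1181, 1130.4 and 1156 in PH80_G+H, 1054, 679.6 and 763 in PH80_HC, 724, 388 and 573 in PH80 and 399, 431 and 482 in PH70. Here the groups stood in the order PH80_G+H, PH80_HC, PH80 and PH70 by mean, with PH80_HC overlapping PH80 and PH80 overlapping PH70. Zbp1 differed among the 4 groups (limma F test, adjusted p = 0.0203), and its difference of 1.09 between PH80_G+H and PH80 (SE 0.23) had an adjusted p of 0.109 by limma.

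Of the 13 antiviral effectors in the table, Ifit1 rose in PH80_G+H against PH80 (0.111% of all genes called higher), and 7 of the 13 were higher with no overlap between the groups (8.82% of all genes). Ifit1 binds viral RNA that lacks the host's cap methylation, and its gene lies at chr19:34640871-34650009. It had 476, 354 and 393 normalised reads in PH80_G+H, against 104, 121 and 99.9 in PH80_HC, 153, 77.8 and 165 in PH80 and 143, 141 and 143 in PH70. The lowest PH80_G+H library was above the highest of the other 9. The log2 difference of PH80_G+H from PH80 was 1.68 (SE 0.26, 3.21-fold, limma adjusted p = 0.0243), the largest of the 36 genes in this comparison.

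Ifit3, which forms complexes with Ifit1 in human cells, is its neighbour on chromosome 19 (34583531 to 34588731). It had 364, 352 and 381 normalised reads in PH80_G+H, 158, 197 and 211 in PH80_HC, 222, 160.0 and 212 in PH80 and 249, 292 and 232 in PH70. By group mean the order was the same as for Ifit1, and PH80 lay below PH70 with no overlap. Ifit3 differed among the 4 groups (limma F test, adjusted p = 0.0434), while the difference of 0.89 from PH80 (SE 0.19) had an adjusted p of 0.114 by limma. Ifit3 has a near-identical copy, Ifit3b, and Ifit1 a relative, Ifit1bl1, so how reads were split among them is uncertain. Ifit2, the third family member in the list, had 120.3 to 133 in PH80_G+H and 55.3 to 87.2 in PH80, with a difference of 0.79 (SE 0.36, limma adjusted p = 0.476).

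Rsad2, which encodes viperin, an enzyme that makes a chain-terminating nucleotide from CTP, lies at chr12:26442746-26456452. It had 557, 400.2 and 338 normalised reads in PH80_G+H, against 135, 166 and 101 in PH80_HC, 170.2, 85.2 and 175 in PH80 and 142, 190.1 and 209.6 in PH70. All PH80_G+H libraries were above all others, and the other 3 groups overlapped. The log2 difference of PH80_G+H from PH80 was 1.62 (SE 0.30, 3.08-fold, limma adjusted p = 0.0624). Cmpk2, its neighbour, which encodes a kinase that supplies the viperin substrate, was at 237 to 269 in PH80_G+H and 80.7 to 161 in PH80, a difference of 1.10 (SE 0.32, limma adjusted p = 0.227).

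The 2 Oasl genes encode relatives of the oligoadenylate synthetases and lie side by side on chromosome 5, and their values followed different orders. Oasl1, which in mice restrains translation of Irf7 (chr5:114923240-114937915), had 1453, 2011 and 1337 normalised reads in PH80_G+H and 512, 244 and 383 in PH80_HC, with 1463, 829 and 907 in PH80 and 519.9, 409 and 769 in PH70. PH80_G+H and PH80 overlapped, as did PH80_HC and PH70, and both of the first pair lay above both of the second. Oasl2 (chr5:114896936-114912234) had 213, 242 and 231 in PH80_G+H, 86.7, 122 and 85.6 in PH80_HC, 160.3, 207 and 139.6 in PH80 and 152, 201 and 201 in PH70. PH80_HC held the 3 lowest of the 12 Oasl2 values and PH80_G+H the 3 highest. The difference of PH80_G+H from PH80 was 0.61 for Oasl1 (SE 0.31, limma adjusted p = 0.517) and 0.45 for Oasl2 (SE 0.22, limma adjusted p = 0.492).

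The product of the classical synthetases Oas1a, Oas2 and Oas3 activates the latent ribonuclease RNase L. Oas2 alone among the 36 genes had a log2 difference below 0, at 163 ± 28.8 normalised reads in PH80_G+H against 230.3 ± 49.9 in PH80 (SD, n = 3 each; log2 difference -0.49, SE 0.35, limma adjusted p = 0.647). Oas1a was at 216 ± 19.3 in PH80_G+H and 164 ± 41.3 in PH80, and Oas3 at 45.6 ± 10.2 and 42.9 ± 0.80 in the same groups. Oas1a has close copies, Oas1g among them, and its reads may be split with theirs.

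Eif2ak2 encodes PKR, the kinase that halts translation on binding double-stranded RNA (chr17:78852564-78882573). It had 491, 499.6 and 430.4 normalised reads in PH80_G+H, 313, 290.0 and 310.0 in PH80_HC, 273, 316 and 286 in PH80 and 310.5, 431 and 317 in PH70. PH80_G+H lay above PH80_HC and PH80, and 1 PH70 library reached its lowest value, with a difference from PH80 of 0.70 (SE 0.17, limma adjusted p = 0.163). Bst2, the membrane tether that holds budding viruses (chr8:71534255-71537456), had the highest mean per kilobase of transcript of the 36, with 8693 normalised reads per kb. Its values were 9005, 6102 and 7619 in PH80_G+H, 6425, 6677 and 10271 in PH80_HC, 11192, 3209 and 5862 in PH80 and 6587, 5065 and 4603 in PH70. The groups overlapped, and PH80 held both the highest and the lowest library, with a PH80_G+H difference of 0.33 (SE 0.36, limma adjusted p = 0.774). Samhd1, which depletes nucleotides, was at 439 ± 103 in PH80_G+H and 420.4 ± 45.2 in PH80.

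**Figure D3:**
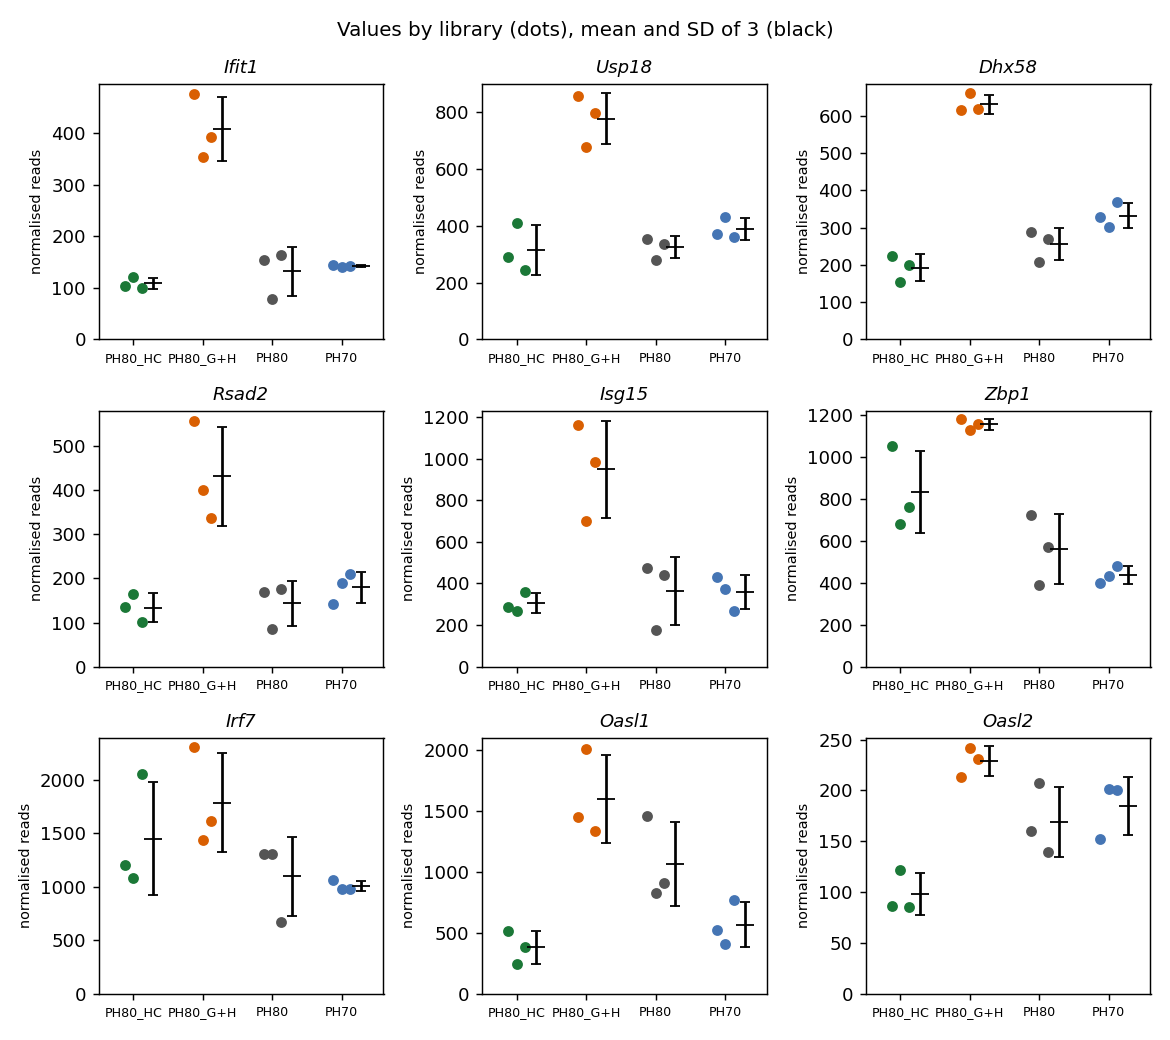
Normalised reads of 9 genes in each library (coloured dots) with the mean and SD of 3 libraries (black), by group, on axes that start at 0. In Ifit1, Usp18, Dhx58, Rsad2, Isg15 and Zbp1 the 3 PH80_G+H libraries are the 3 highest of 12, whereas for Oasl1 they overlap with PH80.

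In the Isg15 and ubiquitin system, Usp18 rose in PH80_G+H against PH80. Usp18 removes Isg15 from proteins and blocks signalling at the receptor, and lies at chr6:121245906-121270917. It had 857, 679 and 798 normalised reads in PH80_G+H, against 289.9, 411 and 243 in PH80_HC, 354, 280.4 and 336 in PH80 and 372, 431 and 361 in PH70. The PH80_G+H libraries were all above the other 9, and PH70 lay above PH80. The log2 difference of PH80_G+H from PH80 was 1.26 (SE 0.20, 2.40-fold, limma adjusted p = 0.031).

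Isg15 itself (chr4:156199424-156200818) had 1161, 700.5 and 984 normalised reads in PH80_G+H, against 287, 267 and 358 in PH80_HC, 475, 176 and 439 in PH80 and 433, 375 and 268 in PH70. It too had its 3 highest values in PH80_G+H, with a wider spread than Usp18 in each group other than PH80_HC. The difference from PH80 was 1.48 (SE 0.33, 2.79-fold, limma adjusted p = 0.129), and Isg15 differed among the 4 groups by the limma F test (adjusted p = 0.0485). The ubiquitin ligase Dtx3l had 1087 ± 127 in PH80_G+H and 624 ± 158 in PH80, and Herc6, the main Isg15 ligase in mice, 312 ± 39.1 and 191 ± 19.2 in the same groups. Trim25, which ubiquitinates RIG-I, and Trim30a had log2 differences of 0.15 (SE 0.19) and 0.11 (SE 0.21).

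The 3 ADP-ribosyl transferases Parp9, Parp12 and Parp14 were higher in PH80_G+H than in PH80 in every library, by 0.52 to 0.81 on the log2 scale, and none passed the test. Parp14 (chr16:35832874-35871544) had 981, 997 and 914 normalised reads in PH80_G+H, 668, 717 and 789 in PH80_HC, 541, 557 and 544 in PH80 and 608, 561 and 825 in PH70. PH80 held the 3 lowest of the 12 values and PH80_G+H the 3 highest, with a difference of 0.81 (SE 0.17, limma adjusted p = 0.109). Parp9 and Dtx3l, whose products work as a pair, overlap by 682 bases on opposite strands of chromosome 16.

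Of the remaining 8 genes, none was called in PH80_G+H against PH80, and 5 were higher with no overlap (8.82% of all genes). Rtp4, a chaperone of taste and opioid receptors that also acts against viruses (chr16:23520291-23614222), had 896, 560.0 and 657 normalised reads in PH80_G+H, 245, 288 and 287 in PH80_HC, 383, 265 and 306 in PH80 and 369.8, 422 and 292 in PH70. Ifi44 (chr3:151730922-151749960) had 121, 131 and 148 in PH80_G+H, 42.9, 66.9 and 35.0 in PH80_HC, 60.5, 38.9 and 55.2 in PH80 and 70.2, 102 and 73.6 in PH70. Xaf1, an antagonist of the apoptosis inhibitor XIAP (chr11:72301629-72313733), had 462, 277 and 357 in PH80_G+H, 147, 151 and 179 in PH80_HC, 209.6, 122 and 169.8 in PH80 and 199, 175 and 181 in PH70. In each of these 3 genes the PH80_G+H libraries were the 3 highest of 12.

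The log2 differences of PH80_G+H from PH80 were 1.13 for Rtp4 (SE 0.22, limma adjusted p = 0.0698), 1.37 for Ifi44 (SE 0.28, limma adjusted p = 0.109) and 1.13 for Xaf1 (SE 0.23, limma adjusted p = 0.109). All 3 differed among the 4 groups by the limma F test, with adjusted p-values of 0.0218, 0.0355 and 0.0415 in that order. Rtp4 overlaps Masp1 by 525 bases on the opposite strand. Ifi27, a small membrane protein (chr12:103434211-103440239), was the second highest of the 36 per kilobase (3706 normalised reads per kb) and had 6303, 3942 and 4242 normalised reads in PH80_G+H, 2217, 2031 and 4653 in PH80_HC, 4506, 1791 and 2880.1 in PH80 and 5354, 2853 and 2678 in PH70. Each group overlapped with the others, and the difference from PH80 was 0.73 (SE 0.39, limma adjusted p = 0.537). Lgals3bp, Helz2, Ifi35 and Sp100 differed by 0.88, 0.43, 0.32 and 0.15 in that comparison.

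Against PH70, PH80_G+H was higher with no overlap for 20 of the 36 genes (5.95% of all genes) and lower for 0 (7.57% of all genes). No gene of the 36 passed limma's test, against 0.00796% of all genes, while 21 had an unadjusted p under 0.05 (5.97% of all genes), edgeR called 0 (0.00796% of all genes) and DESeq2 called 9 (0.525% of all genes). Without PH80 replicate 2, limma called 2 of them, and without any other single library 0. The median log2 difference was 0.48, with 33 of 36 above 0, against -0.01 over all genes. The values in PH70 stand with the genes above, and Zbp1 had the smallest adjusted p (log2 difference 1.40, limma adjusted p = 0.0892), followed by Ifit1 (limma adjusted p = 0.097). This comparison and the previous one share the PH80_G+H libraries.

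Between PH80_HC and PH80_G+H, 8 of the 36 genes were lower in PH80_HC than in PH80_G+H and none was higher, against 0.167% of all genes called lower and 0.0875% called higher (0.255% in either direction). At an unadjusted p under 0.05 there were 24 (13.6% of all genes), and edgeR called 10 (0.374% of all genes) and DESeq2 17 (2.43% of all genes). PH80_HC lay below PH80_G+H with no overlap for 25 of 36 genes (8.4% of all genes) and above it for 0 (8.71% of all genes), and the median log2 difference was -0.75, against 0.02 over all genes. The log2 difference was -1.73 for Dhx58 (SE 0.19, 3.31-fold lower, limma adjusted p = 0.00261), -1.89 for Ifit1 (SE 0.26, 3.72-fold lower, limma adjusted p = 0.00994) and -2.12 for Oasl1 (SE 0.31, 4.33-fold lower, limma adjusted p = 0.0188).

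The other 5 genes lower in PH80_HC than in PH80_G+H were Usp18 (log2 difference -1.33, limma adjusted p = 0.0241), Rtp4 (-1.34, adjusted p = 0.0258), Oasl2 (-1.23, adjusted p = 0.0371), Rsad2 (-1.68, adjusted p = 0.0382) and Ifi44 (-1.49, adjusted p = 0.0498). The count of 8 was 1 without PH80_HC replicate 3 or without PH80_G+H replicate 1 or replicate 3, 2 without PH80_G+H replicate 2, 4 without PH80_HC replicate 1, 5 without PH70 replicate 1 or replicate 2 and 12 without PH80 replicate 2. Dhx58 was called in all 24 alternative fits and Ifit1 and Oasl1 in 20 of them.

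**Figure D4:**
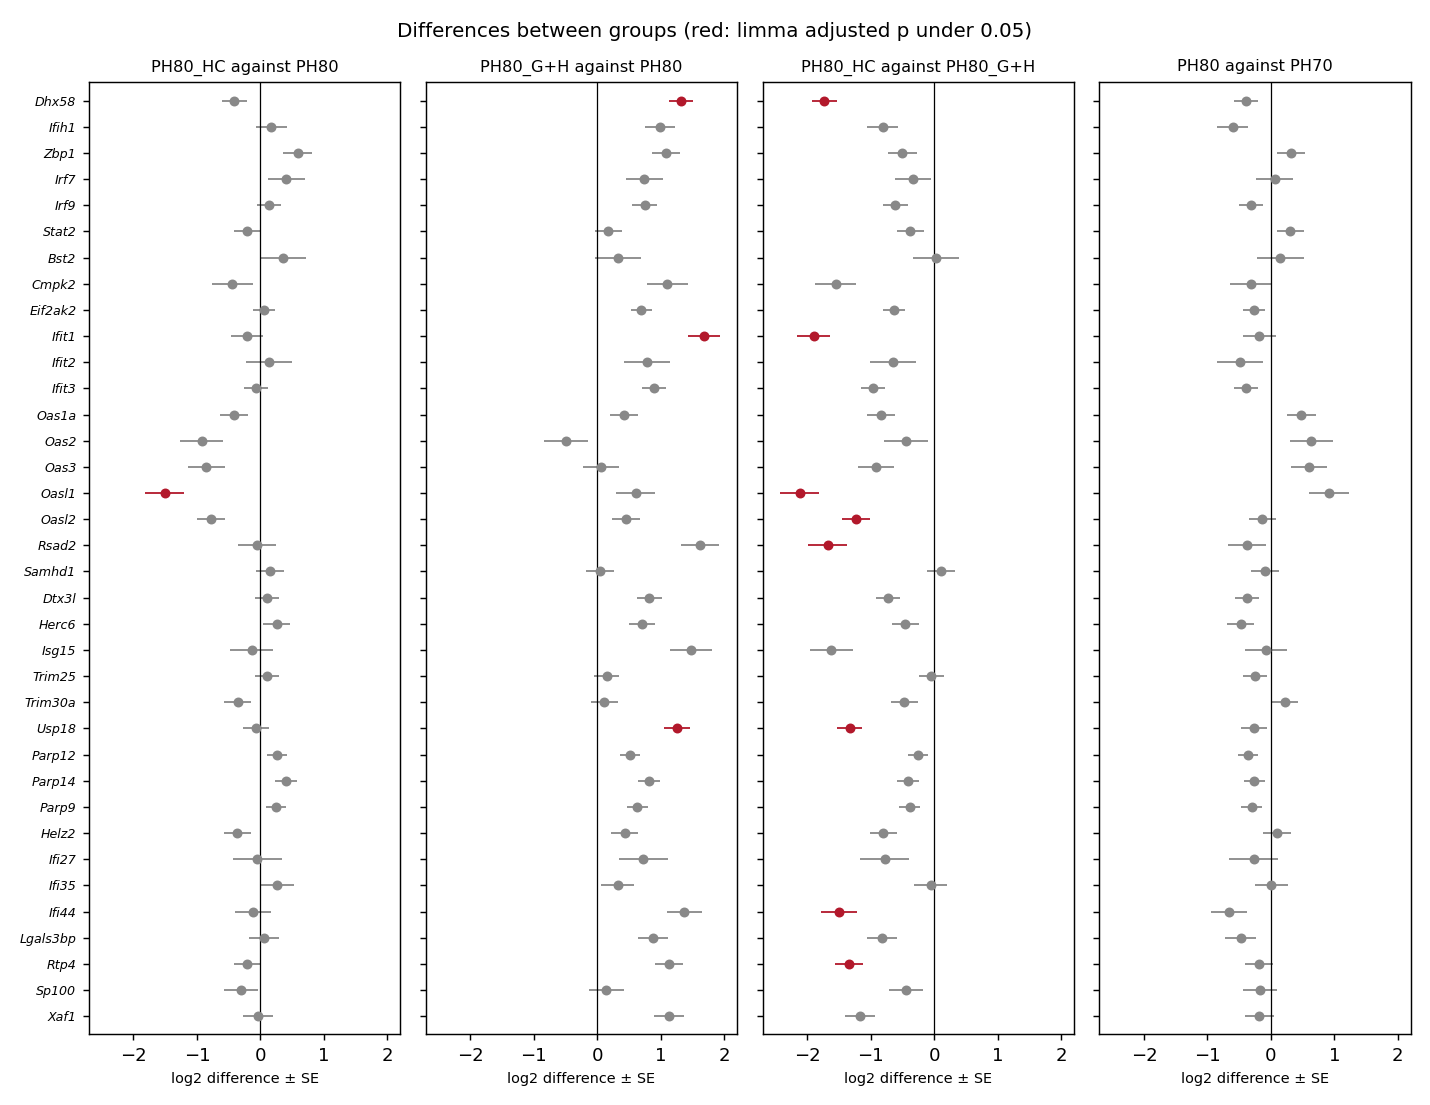
Log2 difference of each of the 36 genes with its SE (limma) in 4 comparisons, with genes at an adjusted p under 0.05 in red. The points lie mostly right of 0 in PH80_G+H against PH80 and left of 0 in PH80_HC against PH80_G+H, and on both sides of 0 in the other 2 panels.

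Against PH80, PH80_HC differed in 1 of the 36 genes, as Oasl1 fell, beside 0.239% of all genes called lower, 0.652% called higher and 0.891% called in either direction. Its log2 difference was -1.51 (SE 0.31, 2.84-fold lower, limma adjusted p = 0.0377), with all 3 PH80_HC libraries below all 3 PH80 libraries. The adjusted p was above 0.05 without any 1 of 8 libraries, and was 0.134 without PH80 replicate 1, 0.0849 without PH80_HC replicate 2, 0.0724 without PH80 replicate 3, 0.0685 without PH80_HC replicate 3, 0.0558 without PH80_G+H replicate 3, 0.0557 without PH80_G+H replicate 1, 0.0513 without PH70 replicate 2 and 0.0503 without PH70 replicate 1. At an unadjusted p under 0.05 there were 6 of 36, about the share of all genes (14.3%), and edgeR called 1 (0.923% of all genes) and DESeq2 2 (4% of all genes).

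PH80_HC and PH80 did not overlap for 2 genes that were higher in PH80_HC, Parp12 and Parp14 (8.26% of all genes), and for 3 that were lower, Oasl1, Oasl2 and Oas3 (7.38% of all genes). The median log2 difference of PH80_HC from PH80 was -0.05, with 16 of 36 above 0, and it ran between -0.38 and 0.05 over the alternatives. The value of -0.38 came with every library scaled to the same total, which moved the median of all genes to -0.31. Against PH70, none of the 36 genes passed limma's test in PH80_HC (0.231% of all genes), while edgeR called 0 (0.119% of all genes), DESeq2 called 3 (2.01% of all genes) and 6 had an unadjusted p under 0.05 (15.8% of all genes). The median was -0.26. It was -0.17 without PH80_HC replicate 1, and -0.46 with every library scaled to the same total, which moved the median of all genes to -0.20. PH80_HC was lower with no overlap for 8 genes (9.07% of all genes) and higher for Irf7 and Zbp1 (7.96% of all genes).

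The comparison of PH80 with PH70 asks what the larger resection did. None of the 36 genes was called by limma, edgeR or DESeq2, against 3.82% of all genes by limma, 2.93% by edgeR and 7.56% by DESeq2. At an unadjusted p under 0.05 there were 5 of 36, beside 21.4% of all genes. PH80 was lower with no overlap for Ifit3, Usp18, Dhx58, Ifi44, Parp12 and Parp14 (14.2% of all genes) and higher for Oasl1, Oas1a and Oas3 (12.8% of all genes). The median log2 difference was -0.22, with 25 of 36 below 0. Without PH80 replicate 2 it was -0.10, with 14 genes above 0, and without the library of steepest length trend of each group it was -0.34. Scaled to the same total it was also -0.10, while the median of all genes moved to 0.13. Oasl1 had a difference of 0.91 (limma adjusted p = 0.118) and Ifi44 one of -0.66 (limma adjusted p = 0.198).

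Other genes of the pathway were followed on fixed lists. None of the 11 listed interferon ligands has a row in the table. The lowest mean of any gene in the table was 1.01 normalised reads. A missing row therefore does not show whether a ligand was expressed. Of 38 pathway genes tested, none was called by limma in PH80_HC against PH80 (7 at an unadjusted p under 0.05, beside 14.3% of all genes) or in PH80_HC against PH80_G+H (13 at an unadjusted p under 0.05, beside 13.6% of all genes). The receptor subunit Ifnar1 had 826, 933 and 827 normalised reads in PH80_G+H, 981, 867 and 815 in PH80_HC, 809, 909.9 and 837 in PH80 and 902, 850.0 and 941 in PH70. Ifnar2 had 1749.5, 1544 and 1356 in PH80_G+H, 2165, 1648 and 2151 in PH80_HC, 1540.0, 1634 and 1388 in PH80 and 1558, 1896 and 1563 in PH70. Both overlapped between PH80_G+H and PH80, with log2 differences of 0.02 (SE 0.15) for Ifnar1 and 0.02 (SE 0.17) for Ifnar2.

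Irf1, induced by interferons of both types, had means of 827 ± 173 normalised reads in PH80_G+H, 837 ± 222 in PH80_HC, 714 ± 55.1 in PH80 and 905 ± 147 in PH70 (SD, n = 3 each), and it was not called in any comparison. In PH80 against PH70, Irf2, which competes with Irf1 for its sites, fell by 0.99 (609 ± 76.8 in PH80 against 1223 ± 256 in PH70, limma adjusted p = 0.0236), and Ifnlr1, the receptor chain for type III interferon, rose by 1.92 at low values (26.1 ± 2.09 in PH80 against 6.49 ± 2.76 in PH70, limma adjusted p = 0.0338). With 1 library left out in turn, the call of Irf2 was lost without 4 of the 12 libraries and that of Ifnlr1 without 7. A further list of 53 tested interferon-induced genes outside the 36 had no called gene in any of the 6 comparisons by limma. In PH80_G+H against PH80, 13 of the 53 had an unadjusted p under 0.05 (10.5% of all genes), 15 were higher with no overlap (8.82% of all genes) and the median log2 difference was 0.25.

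The interferon-inducible GTPases, which attack the vacuoles of intracellular microbes and respond strongly to interferon gamma, were higher than in PH80 in both PH80_HC and PH80_G+H for most of the 16 tested. In PH80_HC against PH80, 4 of 16 rose (0.652% of all genes called higher), 8 were higher with no overlap (8.26% of all genes), and the median log2 difference was 0.96, with 16 above 0, against 0.01 over all genes. In PH80_G+H against PH80, 2 of 16 rose (0.111% of all genes called higher), 11 were higher with no overlap (8.82% of all genes), and the median was 1.01, with 15 above 0, against 0.00 over all genes. The 2 comparisons share the PH80 libraries, and PH80 was itself below PH70 for most of these genes. The median of PH80 against PH70 was -0.57, with 15 of 16 below 0. Against PH70 the median was 0.19 in PH80_HC, with 10 above 0, and 0.27 in PH80_G+H, with 11 above 0. Tgtp1 had 134, 298 and 58.4 normalised reads in PH80_HC and 51.5, 48.0 and 61.2 in PH80_G+H, against 12.7, 15.7 and 21.9 in PH80, with 26.6, 42.0 and 20.1 in PH70. Both PH80_HC and PH80_G+H lay above PH80, and PH80_HC spread widely, with a difference from PH80 of 2.95 (SE 0.48, limma adjusted p = 0.0157). Igtp rose by 1.58 (limma adjusted p = 0.0149), Gbp2 by 1.21 (adjusted p = 0.0344) and Gbp2b by 2.59 (adjusted p = 0.0387) in the same comparison. In PH80_G+H against PH80, Gbp6 rose by 2.06 (limma adjusted p = 0.0355) and Irgm1 by 1.10 (adjusted p = 0.0299), and in PH80 against PH70 Gbp6 fell by 1.57 (adjusted p = 0.0265) and Gbp10 fell by 2.91 (adjusted p = 0.0292). Several of these GTPases are near-identical copies, so single genes are uncertain. With 1 library left out in turn, Igtp stayed called in all 12 fits, Tgtp1 was lost without PH80 replicate 1 or PH80_HC replicate 1, and Gbp2, Gbp2b, Irgm1, Gbp6 and Gbp10 were lost without 4 to 9 of the 12, with no change of sign.

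Of 13 tested genes on the list of interferon gamma-induced genes, Cxcl9, a chemokine that draws T cells, was called. It had 324, 754 and 458 normalised reads in PH80_HC, 92.0, 87.1 and 90.4 in PH80_G+H, 226, 111 and 78.1 in PH80 and 67.8, 87.7 and 178 in PH70. All PH80_HC libraries were above all others. Cxcl9 was higher in PH80_HC by 1.94 against PH80 (limma adjusted p = 0.0454), by 2.23 against PH70 (adjusted p = 0.0474) and by 2.41 against PH80_G+H (adjusted p = 0.0371). These calls were lost without 9, 9 and 6 of the 12 libraries in that order, each left out in turn, with no change of sign. Over all genes tested, 0.652% were called higher in PH80_HC against PH80 and 0.0875% against PH80_G+H. Against PH70, 0.231% were called in either direction. The median of these 13 genes was 0.84 in PH80_HC against PH80, with all 13 above 0, and 0.15 in PH80_G+H against PH80. The median of the 36 type I response genes in the same comparisons was -0.05 and 0.73. Which interferon lay behind the values of either list was not tested.

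**Figure D5:**
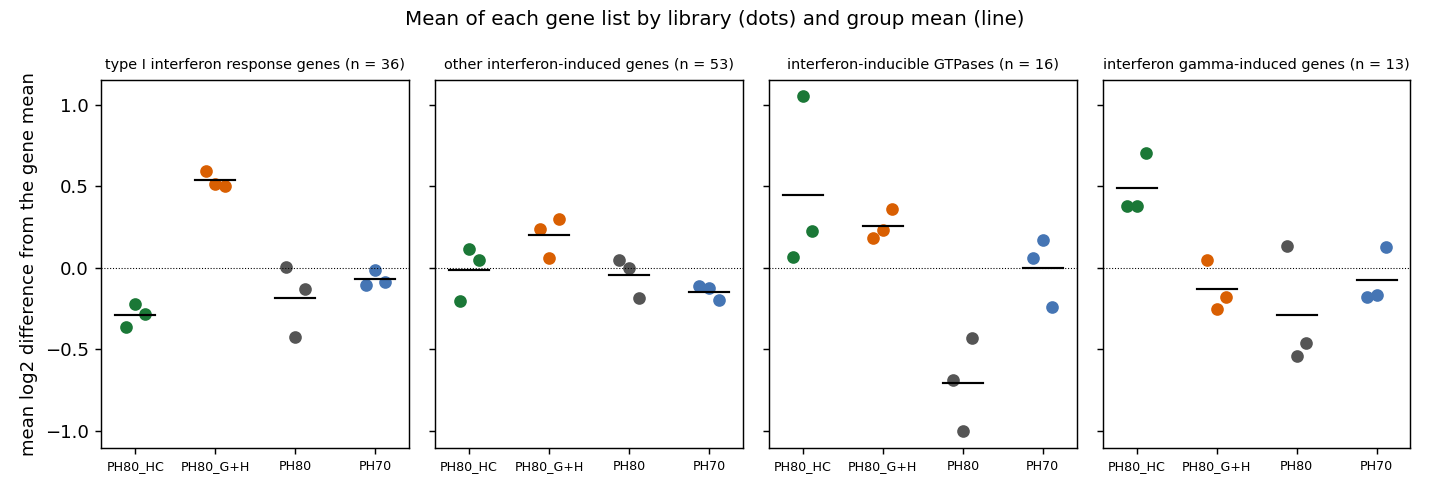
Mean log2(value + 1) of 4 gene lists in each library (dots) and group (lines), as the difference from each gene's mean over 12 libraries. The 36 type I response genes are highest in the 3 PH80_G+H libraries, while the 13 interferon gamma-induced genes are highest in the 3 PH80_HC libraries.

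Markers of other cell types moved between groups and libraries as well. Summed over 9 T and NK cell markers, values were 202 to 585 normalised reads in PH80_HC, 76.2 to 134 in PH80_G+H, 78.1 to 270 in PH80 and 90.8 to 98.1 in PH70. The 9 Kupffer cell and macrophage markers summed to 22059 to 35932 in PH80_HC, 13708 to 18901 in PH80_G+H, 14161 to 34180 in PH80 and 11900 to 16156 in PH70. In both lists every PH80_HC library, where Cxcl9 was also highest, lay above every PH80_G+H and PH70 library, while PH80 overlapped PH80_HC and PH80_G+H. The part of these cells in the Cxcl9 and GTPase values was not tested. In whole liver RNA, fewer cells of a type and less RNA per cell cannot be told apart.

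The 7 markers of plasmacytoid dendritic cells, Siglech among them, were all in the table, and none was at 0 in all libraries of a group. They summed to 302 to 337 normalised reads in PH80_G+H, 256 to 376 in PH80_HC, 231 to 329 in PH80 and 252 to 316 in PH70. The 7 neutrophil markers summed to 362 to 2385 in PH80_G+H, 592 to 2146 in PH80_HC, 307 to 5938 in PH80 and 145 to 508 in PH70. By these sums the groups overlapped for both lists, except that PH80_HC lay above PH70 in neutrophil markers. With each gene weighted equally, the mean log2 deviation of the plasmacytoid dendritic cell markers was 0.79, 0.22 and 0.28 in PH80_G+H, -0.61, -0.03 and -0.77 in PH80_HC, 0.69, -0.60 and -0.40 in PH80 and 0.03, 0.40 and 0.01 in PH70. On that scale every PH80_G+H library lay above every PH80_HC library, while PH80 and PH70 overlapped with PH80_G+H. Of these markers, Siglech and Tcf4 passed the filter on low values, and Ccr9, Klk1, Cox6a2, Pacsin1 and Runx2 did not. The equally weighted mean therefore rests largely on genes with low values, and the sums rest mostly on Siglech and Tcf4.

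The 7 hepatocyte markers moved with the comparison of PH80_G+H with PH80. Their mean log2 deviation was 0.11, 0.23 and -0.02 in PH80_G+H, 0.48, -0.04 and -0.02 in PH80_HC, -0.33, -0.29 and -0.21 in PH80 and -0.05, 0.12 and 0.01 in PH70. All 3 PH80 libraries lay below all 9 others. The part of hepatocytes, plasmacytoid dendritic cells and neutrophils in the differences among the 36 genes was not tested.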

How the data were processed

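Liver RNA of 12 libraries in 4 groups was measured. Per the labels' protocols, a stranded kit that selects polyadenylated RNA was used, with 100 ng total RNA as input. Per the submitters' processing notes, DESeq2 was used on GRCm38; no aligner, counter or annotation is named there. Values in the deposited table are a normalised signal, that is reads divided by a size factor per library. All values came out as whole reads within 0.01, which gave each library's depth. All columns map to samples of the series (0 columns of other samples).

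Log2(value + 1) of 12570 genes with at least 10 in at least 3 libraries was fitted with limma 3.58.1 (R 4.3.3, intensity trend, all 12 libraries, group as the single factor), two-sided, with Benjamini-Hochberg adjustment over all genes and a threshold of 0.05. Folds are on that scale and understate changes of low genes. The value of 1 is the pseudocount. Alternatives were edgeR 4.0.16 and DESeq2 1.42.0 on recovered reads, other scalings, filters and pseudocounts, the length trend removed, a replicate block, 2 groups alone, and each library left out. The fit was also run on simulated counts, which lacked the length trends of the libraries, and no result here rests on that run.

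The members, lists and tests were chosen with earlier results of these data known. By rule, values in every library are given for members called in any comparison or in the F test and for a set of core pathway genes. From other lists, called genes are named, at most 4 per list and comparison, with Irf1, Ifnar1, Ifnar2 and Tgtp1 in every case; 1 pathway gene is not reported here. Coordinates are those of GENCODE M21 (GRCm38), and promoters are RefSeq's for GRCm38.p6.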

Additional observations from a re-analysis of the deposited data

How the results depend on the processing

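With DESeq2, calls among the 36 genes were 2 in PH80_HC against PH80, 17 in PH80_G+H against PH80, 3 in PH80_HC against PH70, 9 in PH80_G+H against PH70, 17 in PH80_HC against PH80_G+H and 21 in the F test. Without the intensity trend they were 0 in PH80_HC against PH80, 0 in PH80_G+H against PH80 and 7 in the F test. At the same total per library PH80_G+H against PH80 gave 0, and with the length trend removed 8. With 2 groups alone PH80_HC against PH80 gave 0 and PH80_G+H against PH70 gave 2. Without the library of steepest length trend of each group, PH80_HC against PH80 gave 0 and PH80_HC against PH80_G+H 3. Leaving out 1 library gave 0 to 1 in PH80_HC against PH80, 0 to 4 in PH80_G+H against PH80, 0 to 2 in PH80_G+H against PH70, 1 to 12 in PH80_HC against PH80_G+H and 3 to 12 in the F test, and 0 in the other comparisons. The cause of these changes was not tested. Shares of all genes are given above for the main limma fit, edgeR and DESeq2 only. In the other fits, here and above, a changed count cannot be told from a change over all genes. No called gene changed direction. The replicate numbers do not pair the libraries: correlations of same-number deviations ran from -0.367 to 0.373 over 18 pairs, and 4 of 12 libraries correlated best with their own number. With the replicate block, PH80_HC against PH80 gave 0, PH80_G+H against PH80 gave 2, PH80_HC against PH80_G+H gave 3 and the F test 8; with the block and the length trend removed they gave 0, 6, 9 and 10. An exact test of 3 libraries against 3 could not go below 0.1.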
